A study of Mus musculus with 8 samples.

Results

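Tumour cells that carried transcripts of Rem2, Galnt14 or both were examined in mouse allografts of N2N1G, a small cell lung cancer line. By the rule they had no UMI of Tfap2a or Sftpc and few of Htr3a, Isl1 and Igfbpl1, genes that mark other tumour cell groups. Other markers of those groups were not excluded. The rule asked for at least 500 detected genes, at most 10% mitochondrial UMIs, at least 0.2% of UMIs from eGFP and Mycl, no Tfap2a or Sftpc UMI, fewer than 3 UMIs of Htr3a, Isl1 and Igfbpl1 together, and at least 2 UMIs of Rem2 and Galnt14 together. A UMI (unique molecular identifier) marks 1 captured transcript. The rule found 1563 cells among 34719 tumour cells, 4.5% of them, and among 38460 deposited cells. The cells were thus chosen by their UMIs of these genes, and are called Rem2/Galnt14 cells. Htr3a was still found in 29.85% of them in brain library 1 and 52.17% in brain library 2, the lowest and highest of the 8 libraries.

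All tumours came from this 1 cell line, so differences between lines could not be seen. Each allograft grew in a mouse for 3 weeks. Of the 8 libraries, 2 came from the brain and 3 from the subcutaneous flank, both after direct injection, and 3 from the liver after tail vein injection. Site and route of injection cannot be told apart for the liver. Healthy cells were sorted by flow cytometry and sequenced with the 10x Genomics 3′ method. The labels do not say that each library came from a separate mouse. P-values between sites therefore measure the spread between libraries. Those between cell groups measure how the difference within a library varies from library to library. Strain, sex and age of the hosts are not given in the sources used here.

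Rem2 belongs to the RGK family of small GTPases, which bind the beta subunits of voltage-gated calcium channels and lower calcium currents, and it is best known in neurons. Galnt14 is a GalNAc transferase, an enzyme of the Golgi apparatus that starts O-linked sugar chains on proteins and is known to modify death receptors. Ina encodes alpha-internexin, an intermediate filament protein of neurons. Small cell lung cancer is a neuroendocrine tumour whose cells express many genes of neurons.

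In GRCm38, Rem2 lies on chromosome 14 from 54476100 to 54480431 on the plus strand, and Galnt14 on chromosome 17 from 73493228 to 73710453 on the minus strand. Ina lies on chromosome 19 from 47014698 to 47025327 on the plus strand. All 3 are protein coding. The RefSeq promoter windows of the pair that defined the cells, from 250 bases before to 50 bases after the start site, are shown 5′ to 3′ on the strand of the gene (GRCm38.p6). Rem2 is at chr14:54475850-54476149 and Galnt14 at chr17:73710402-73710701. Capitals mark matches on either strand to an E-box, the letters that basic helix-loop-helix factors are known to bind. The first spelling searched was CAGCTG. The other was CAGGTG, whose other strand reads CACCTG.
Rem2: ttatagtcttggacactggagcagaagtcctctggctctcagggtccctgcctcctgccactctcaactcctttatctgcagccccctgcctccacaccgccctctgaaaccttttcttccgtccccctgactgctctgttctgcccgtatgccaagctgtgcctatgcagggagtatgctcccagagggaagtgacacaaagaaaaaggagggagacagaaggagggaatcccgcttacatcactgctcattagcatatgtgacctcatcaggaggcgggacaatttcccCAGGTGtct
Galnt14: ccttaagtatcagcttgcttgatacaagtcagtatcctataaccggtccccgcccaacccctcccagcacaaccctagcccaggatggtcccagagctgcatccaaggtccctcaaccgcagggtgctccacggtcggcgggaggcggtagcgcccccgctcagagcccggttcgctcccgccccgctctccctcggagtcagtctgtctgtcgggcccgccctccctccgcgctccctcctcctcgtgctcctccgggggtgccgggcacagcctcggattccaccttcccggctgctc
The Rem2 window held 1 such match and the Galnt14 window held 0. Of 32851 promoter windows in the table, 10823 (32.95%) held at least 1. A match is a description of the letters and not of binding.

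Several facts about the libraries bear on what follows. Total UMIs ranged from 27140735 (brain 1) to 63049542 (subcutaneous 2). In subcutaneous library 1, cells with Tfap2a and fewer than 3 UMIs of Htr3a, Isl1 and Igfbpl1 made up 1369 of 4150 tumour cells. That was the highest share of the 8 libraries. Pairs of libraries shared 20 to 56 cell barcodes. In all, 882 barcodes occurred in more than 1 library, and 71 Rem2/Galnt14 cells carried such a barcode. No doublet caller was run.

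The data went against the label in that the gene pair was more common in tumour cells that the rule leaves out. Of the 34719 tumour cells, 10717 (30.9%) had at least 2 UMIs of the pair, and the Rem2/Galnt14 cells were 14.6% of those. Among cells that passed the exclusion clauses, 16.6% reached 2 UMIs. The share was 39.7% among cells with Sftpc, 40.6% among cells with Htr3a, Isl1 and Igfbpl1, and 19.0% among cells with Tfap2a. Median depth was 7400, 10126, 11530 and 9800 UMIs per cell in the same order of groups. After thinning every cell to 3000 UMIs, the share was 3.87% ± 3.06 among cells that passed the exclusion clauses, 6.88% ± 3.26 among cells with Sftpc, 5.25% ± 2.43 among cells with Htr3a, Isl1 and Igfbpl1 and 2.1% ± 1.62 among cells with Tfap2a (SD, n = 8). At that depth cells with Sftpc lay above the cells that passed the clauses in 8 of 8 libraries, cells with Htr3a, Isl1 and Igfbpl1 in 6 of 8, and cells with Tfap2a below them in 8 of 8. Within every library the share was higher in cells with Sftpc than in cells that passed the exclusion clauses, as the plot of the pair by marker shows.

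**Figure D1:**
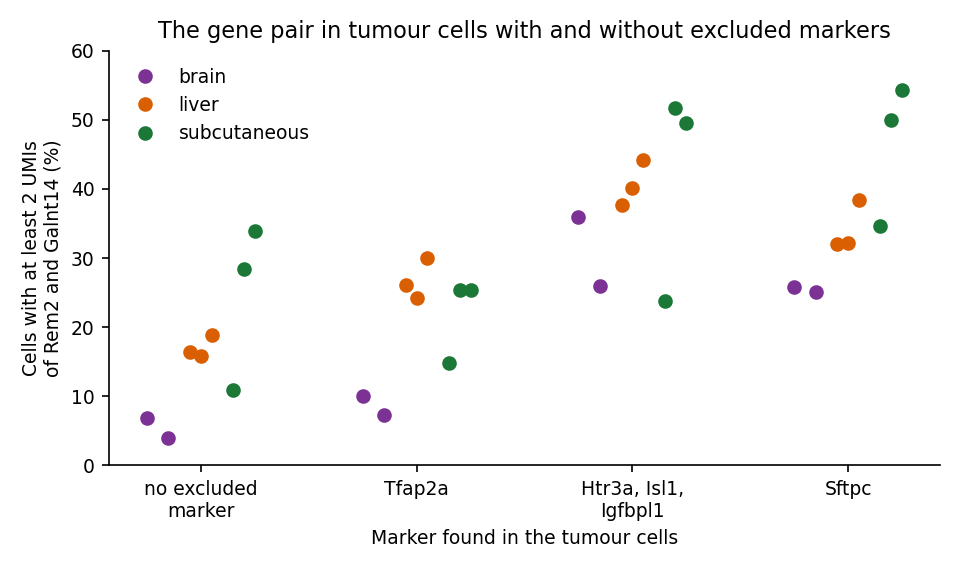
Percentage of tumour cells with at least 2 UMIs of Rem2 and Galnt14 together, by group. Groups are cells that passed the exclusion clauses (labelled no excluded marker) and cells with Tfap2a, with Htr3a, Isl1 and Igfbpl1, or with Sftpc. Each cell counts in 1 group, in the order given in the text. Each point is 1 library, coloured by site. Cells with Sftpc lie between 25.1% and 54.3% and cells that passed the clauses between 3.95% and 33.9%.

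The pair was also little coupled within cells. Of the 1563 cells, 753 had UMIs of both genes, 532 of Rem2 alone and 278 of Galnt14 alone. Most lay at the threshold: 865 had exactly 2 UMIs of the pair, 392 had 3 and 306 had at least 4. Just outside it, 2150 cells that passed the other clauses had exactly 1 UMI. When cells that passed the exclusion clauses were thinned to 3000 UMIs, Galnt14 was found in 4% to 16.7% of cells with Rem2 and in 5.29% to 12.9% of cells without it, over the 8 libraries. The variance of Rem2 counts divided by their mean was between 1.02 and 1.51, where independent capture of rare transcripts gives about 1.

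Free RNA was gauged in host macrophages, which should lack the pair. Among 779 macrophages of brain library 1 (median 4203 UMIs), 0.642% held a Rem2 UMI and 0 held at least 2 UMIs of the pair. In the tumour cells of the same library (median 7972 UMIs) 25.1% held a Rem2 UMI. In 98 macrophages of subcutaneous library 1, at a median of 5886.5 UMIs, 4.08% held a Rem2 UMI and again 0 reached 2 UMIs of the pair. Of 232 macrophages in brain library 2, 0 held a Rem2 UMI.

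As the rule required, Rem2 and Galnt14 were high in these cells, and their levels are given without a test. All levels are in CPM, the UMIs of a gene divided by all UMIs of the summed cells of a library and scaled to a fixed total. Rem2 stood at 117.3 and 81.95 CPM in the brain, at 134.1, 138.0 and 174.2 in the liver and 145.1, 195.4 and 180.0 under the skin. Galnt14 stood at 139.1 and 152.6 CPM in the brain, 103.0, 103.8 and 118.0 in the liver and 86.27, 112.4 and 107.9 under the skin. The brain libraries thus had the lowest levels of Rem2 in these cells and the highest levels of Galnt14. Because the rule sets a minimum for the sum of the pair, chosen cells with little Rem2 must hold Galnt14. The opposite order of the levels is therefore not a result about the sites. The other tumour cells averaged 58.6 ± 24.2 CPM of Rem2 and 43.1 ± 14.4 CPM of Galnt14 (SD, n = 8).

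Over all tumour cells, whatever their markers, Rem2 was lowest in brain library 2 (28.3 CPM) and highest in subcutaneous library 2 (102 CPM). Brain library 1 had 40.9 CPM, the liver libraries 49.6, 54.7 and 76.9, and the other subcutaneous libraries 51.1 and 94.6. Galnt14 ran from 24.8 CPM in subcutaneous library 1 to 65.6 in subcutaneous library 3. It was at 43.6 and 31.4 CPM in the brain and 42.0, 39.2 and 53.5 in the liver, so the brain was not highest. The liver and subcutaneous libraries overlapped for both genes.

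Ina, the remaining marker and no gene of the rule, differed little. Rem2/Galnt14 cells had 238 and 196 CPM of Ina in the brain, 223, 259 and 257 in the liver and 248, 372 and 314 under the skin. The other tumour cells had 213 and 202, then 193, 202 and 224, then 215, 328 and 306. Ina was higher in Rem2/Galnt14 cells in 7 of 8 libraries, by 0.15 on the log2 scale (SE 0.03, adjusted p = 0.001 in edgeR's quasi-likelihood test). Against unmarked cells, those that passed every clause except the one on the pair, it was 0.15 as well (SE 0.04, edgeR adjusted p = 0.013, higher in 6 of 8 libraries). Ina passed the test but was a transcript of most tumour cells, found in 85.8% of Rem2/Galnt14 cells and 79.2% of the others on average.

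The share of Rem2/Galnt14 cells among tumour cells was lowest in the brain. It was 2.77% and 1.70% there (67 and 69 cells), 3.04%, 3.87% and 3.83% in the liver (125, 162 and 181 cells), and 3.40%, 6.88% and 8.06% under the skin (141, 432 and 386 cells). Both brain libraries lay below all others, while subcutaneous library 1 lay within the range of the liver. With 1 UMI of the pair as the threshold the brain was not lowest, at 9.97% and 8.84% against 8.07%, 10.4% and 9.11% in the liver. Brain minus the other libraries was -2.61 points (-1.39 at 1 UMI, and -15.3 as a share of the cells that passed the exclusion clauses). Site means were 2.24% ± 0.758 (SD, n = 2), 3.58% ± 0.469 (n = 3) and 6.11% ± 2.42 (n = 3). The exact permutation test over 560 assignments did not separate the 3 sites (p = 0.1143), nor did the exact pairwise permutation tests (p = 0.2, 0.2 and 0.3, each 0.3 after Benjamini-Hochberg adjustment). The smallest p those pairwise tests allow is 0.1. Without subcutaneous library 1, the one within the range of the liver, the exact permutation p over the 3 sites was 0.019. Each library was left out in turn, and the p-values of the other settings are not given here. This 1 setting does not replace the test over all libraries, which did not separate the sites. Fewer such cells and fewer transcripts of the pair per cell cannot be told apart by this rule.

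**Figure D2:**
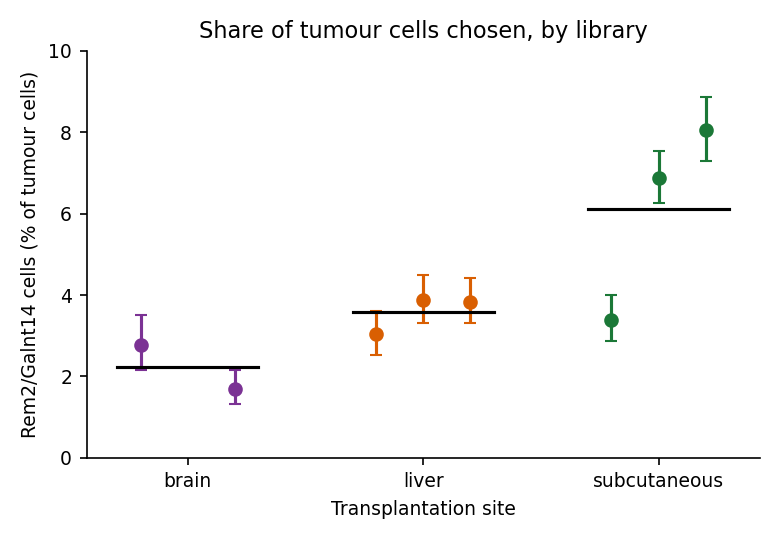
Rem2/Galnt14 cells as a percentage of the tumour cells of each library, by site of transplantation. Points are libraries with exact (Clopper-Pearson) 95% binomial intervals, which cover counting error only, and black lines are site means; the brain means 2.24%, the liver 3.58% and the flank 6.11%.

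Rem2/Galnt14 cells lay mostly among cells of other groups. In each library, tumour cells were placed by 2000 variable genes and 30 principal components, without the genes of the rule, and the 15 nearest cells were recorded. Between 3.00% and 9.93% of the neighbours of Rem2/Galnt14 cells were such cells, against a share of 1.70% to 8.06% in the libraries, and the first value was higher in 8 of 8 libraries. Cells with Sftpc made up 27.9% to 62.1% of their neighbours, and that group was 21.9% to 57.3% of all tumour cells in the libraries. The share among their neighbours was higher than around unmarked cells in 8 of 8 libraries and lower than around cells with Sftpc in 8 of 8.

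Gene expression was first compared with all other tumour cells of the same library, on UMI sums per library. Rem2/Galnt14 cells had higher levels of immediate early genes, which answer signals within minutes, and of genes of the stress and low-oxygen responses, and lower levels of genes of DNA replication. The differences were small. In edgeR's quasi-likelihood test with the library as a block, 1296 of 11699 genes (11.1%) passed an adjusted p of 0.05, 676 (5.78%) higher and 620 (5.3%) lower. Of these, 30 (0.256%) also changed at least 1.5-fold and in the same direction in 8 of 8 libraries, 12 (0.103%) higher and 18 (0.154%) lower. Over all genes tested, 2.3% lay above and 2.46% below the other cells in all 8 libraries. Without the block for library, 0 genes passed in edgeR, with 1222 at an unadjusted p under 0.05. When the rule was applied to cells thinned to 3000 UMIs 81 passed, and DESeq2 called 713. With the other cells sampled to the depth of the Rem2/Galnt14 cells, 1125 of 11351 genes (9.91%) passed.

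Fos, an immediate early transcription factor, had 424 and 189 CPM in the Rem2/Galnt14 cells of the brain, 65.2, 50.2 and 73.3 in the liver and 108, 103 and 123 under the skin. The other tumour cells had 237 and 124, then 47.3, 39.2 and 48.6, then 79.7, 79.4 and 82.1. Within each library the Rem2/Galnt14 cells were higher, although libraries differed more than the cell groups did. Fos was higher by 0.53 on the log2 scale (SE 0.05, edgeR adjusted p = 4.7e-14). Trib3, a pseudokinase induced by amino acid and endoplasmic reticulum stress, rose by 0.68 (SE 0.06, edgeR adjusted p = 1.3e-13). Its levels in the Rem2/Galnt14 cells were 25.4 CPM at the lowest, 62.8 at the median and 185 at the highest, against 18.8, 35.0 and 121 in the others. The ranges overlapped, and subcutaneous libraries had more Trib3 in both groups. With the rule applied to thinned cells Fos was at 0.25 (edgeR adjusted p = 0.34) and Trib3 turned to -0.05 (adjusted p = 0.93).

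Klf2, a zinc finger transcription factor, had a median of 16.3 CPM in Rem2/Galnt14 cells (9.89 to 30.5) and 7.43 in the others (4.25 to 21.6), a log2 fold change of 0.87 (SE 0.11). Mfap2, a microfibril protein of the extracellular matrix, was higher by 1.15 (SE 0.20), but turned to -0.46 with the rule applied to thinned cells and to -0.17 at a threshold of 3 UMIs. Its median was 8.66 CPM against 3.78, and 1 library reached 54.7. Egr1 (0.54), Atf3 (0.50) and Ppp1r15a (0.51), further genes of the immediate early and stress responses, and Pif1 (0.61), a DNA helicase, and Tacc3 (0.51), a mitotic spindle protein, were higher as well. Palld (0.66), an actin-binding protein, Ccdc30 (0.61) and Stmn4 (0.57), a microtubule-regulating stathmin of neurons, complete the 12 genes with the largest rise among those called, of the same direction in 8 of 8 libraries and with at least 10 CPM in the Rem2/Galnt14 cells. With the rule applied to thinned cells, Egr1 (-0.06), Pif1 (-0.08) and Ccdc30 (-0.63) also turned, and of the 12 Stmn4 alone kept the call (0.48, edgeR adjusted p = 0.0038).

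Among genes that were lower, Cd74, the invariant chain of MHC class II, fell by 1.61 on the log2 scale (SE 0.17, edgeR adjusted p = 4.0e-11). Its median was 1.71 CPM in Rem2/Galnt14 cells and 9.85 in the others. At a threshold of 1 UMI of the pair Cd74 turned to 0.30. Islr2, a neuronal membrane protein, fell by 1.77 (SE 0.20), from a median of 7.96 CPM to 2.33. Nkx2-2, a homeobox factor of neuroendocrine and glial lineages, fell by 0.96 (SE 0.15), from 8.81 to 4.57 CPM. Nefl, the light chain of neurofilaments, fell by 0.59 and Cacna1c, the pore subunit of an L-type calcium channel, by 0.52, although Cacna1c was at 0.09 at a threshold of 1 UMI. Zeb2, Il17b, Gpld1, Gamt, Tead2, Hepacam2 and Hmgcll1 fell by 0.48 to 0.73. The median over all genes tested was 0.01.

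Members of the gene lists were counted in the same fit, where 5.78% of all genes were higher and 5.3% lower. Of 19 hypoxia and glycolysis genes tested, 13 were higher and 0 lower, with a median log2 fold change of 0.36. They included P4ha2 (0.66, and -0.37 with the rule applied to thinned cells), Car9 (0.64), Egln3 (0.51) and Vegfa (0.32). Of 14 immediate early genes 10 were higher and 1, Arc, was lower (median 0.27). Of 15 genes of the amino acid stress response 9 were higher, with Sesn2 at 0.58, Ddit3 at 0.44 and Chac1 at 0.35 (median 0.22). Of 18 S phase genes 11 were lower and 0 higher (median -0.20), Ung by 0.32 and Pcna by 0.25. Of 20 G2/M genes 5 were higher (median 0.19), and of 10 epithelial genes that mark the Tfap2a cells 6 were higher (median 0.19).

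Lists for the families of the defining genes were short. Their counts are a description beside the 11.1% of all genes that passed in this fit. Among RGK GTPases other than Rem2, Gem was the only one tested, and it was higher by 0.81 (SE 0.21, edgeR adjusted p = 0.0042). Against unmarked cells it was at 0.17 and not called. Its level was low. The 4 RGK genes summed to 188.0 CPM in Rem2/Galnt14 cells of subcutaneous library 3, of which Rem2 was 180.0. In brain library 2 they summed to 81.95 CPM, all of it Rem2. Of 15 voltage-gated calcium channel subunits, Cacna2d1 was higher (0.24) and Cacna1c lower. Of 10 GalNAc transferases other than Galnt14, 0 passed in either direction (median -0.01), and the same held for 7 genes that extend O-linked sugar chains. Of 10 intermediate filament genes, Ina and Krt18 (0.14) were higher and Nefl was lower. Of 23 genes of the axon and neuronal cytoskeleton 6 were lower, among them Elavl4 (-0.31) and Gap43 (-0.20), and Stmn4 was higher.

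Most of the other tumour cells carried an excluded marker, so the comparison was repeated against the 7867 unmarked cells. Most of the stress, low-oxygen and immediate early genes did not pass there. In that fit 940 of 11728 genes (8.02%) passed, 424 (3.62%) higher and 516 (4.4%) lower. Of these 105 (0.895%) also met the 1.5-fold rule, 33 (0.281%) higher and 72 (0.614%) lower, and 3.98% of all genes lay above and 1.76% below in all 8 libraries. Markers of other cell types were among the lower genes: the haemoglobin genes Hba-a1 (-4.75) and Hbb-bs (-3.87), albumin (Alb, -4.34) and the fibroblast receptor Pdgfra (-1.11). The 5 erythroid genes summed to 2974 CPM in the unmarked cells of liver library 2, 112 in its Rem2/Galnt14 cells and 881 in its other tumour cells, and the haemoglobin genes were lower against all other tumour cells too (Hba-a1 -3.25, Hbb-bs -2.69). The part of such transcripts in other genes' differences was not tested. Of the 1296 genes called against all others, 215 were called here too, 169 of them in the same direction. Those 215 are 16.6% of the first list and 22.9% of the second. The unmarked cells were shallower, with library medians of 5808 to 7659.5 UMIs against 9007.5 to 10291.5. When 2656 of them were sampled to the depth of the Rem2/Galnt14 cells, 277 of 9758 genes (2.84%) passed.

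Against unmarked cells, Fos was at -0.09 on the log2 scale (edgeR adjusted p = 0.75), Trib3 of -0.05 (0.94), Egr1 of 0.01 (0.99) and Mfap2 of -0.73 (0.092). Of the 12 genes named as higher, 2 passed in the same direction, Stmn4 and Palld, and Palld lost the call at matched depth (0.42, edgeR adjusted p = 0.085). Of the 12 named as lower, 4 did: Cd74, Islr2, Cacna1c and Hepacam2. Of 19 hypoxia genes 0 were higher and 3 lower, and of 18 S phase genes 0 passed. The same genes are set side by side in the plot of both comparisons, where the higher genes fall around 0 on the vertical axis.

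**Figure D3:**
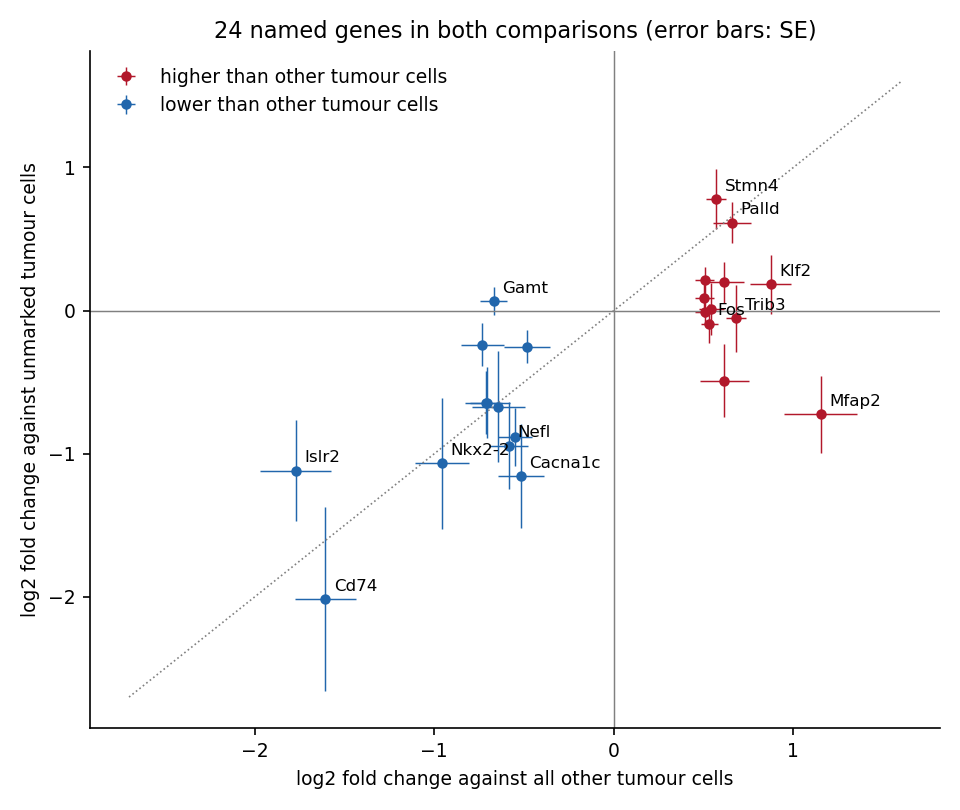
Log2 fold change of Rem2/Galnt14 cells against all other tumour cells (horizontal) and against unmarked tumour cells (vertical) for the 24 genes named in the first comparison, with standard errors and a dotted line of equal change. The 12 higher genes have a median of 0.59 on the horizontal and 0.05 on the vertical axis, and the 12 lower genes -0.69 and -0.78.

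Genes of neurons and neuroendocrine cells differed from unmarked cells in both directions, in a fit where 8.02% of all genes passed. Of 20 neuroendocrine granule and peptide genes 1, Grp (0.66), was higher, and Pcsk1 (-0.88), Resp18 (-0.83) and Calca (-0.64) were lower. Against all other tumour cells the called genes of this list differed. Pcsk1 (0.31), Resp18 (0.30) and Ptprn (0.43) were higher there, and Chga (-0.17), Chgb (-0.34), Pcsk2 (-0.27) and Ddc (-0.12) lower. Of 27 synaptic vesicle genes Syt1 (0.44) and Syt11 (0.26) were higher and Sv2a (-1.06), Rab3a (-0.25), Vamp2 (-0.22) and Rab3c (-0.17) lower. Stmn4 had 39.1 and 31.1 CPM in the brain, 57.0, 70.7 and 97.4 in the liver and 44.4, 124 and 103 under the skin. Unmarked cells had 16.9 and 9.59, then 34.1, 38.7 and 45.9, then 22.2, 98.9 and 78.0. Stmn4 was higher in 8 of 8 libraries, by 0.78 on the log2 scale (SE 0.21, edgeR adjusted p = 0.022), and by 0.81 at matched depth (adjusted p = 8.0e-06).

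Tex14 (0.83), Mcam (0.71) and Pcdh17 (0.71) were also higher in 8 of 8 libraries but were not called at matched depth, and Arg2 (0.80, or 0.89 at matched depth), an arginase, was called at both.

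Among 22 lineage factors of small cell cancer 6 were higher and 2 lower. Insm1, a zinc finger factor of neuroendocrine cells, rose by 0.33 (SE 0.05, edgeR adjusted p = 1.0e-04) and Nfib, a factor that promotes spread of this cancer in mice, by 0.30 (SE 0.04, adjusted p = 9.5e-05). Both were higher in 8 of 8 libraries and kept the call at matched depth. Onecut2 (0.44), Pou4f1 (0.58), Sox4 (0.24) and Sox11 (0.25) were higher too, of which Sox4 and Sox11 kept the call at matched depth, and Myt1l (-1.24) and St18 (-1.06) lower. Against all other tumour cells Sox11 was lower instead (-0.12, edgeR adjusted p = 0.0095). Sox2 (-0.25) was also lower there and Nkx2-1 (0.14) higher, and no other gene of this list was called. Of 24 axon and cytoskeleton genes 5 were higher, with Kif5c at 0.27 and Elavl2 at 0.20, and 2 lower, with Nrn1 at -2.03. Of 15 calcium channel subunits Cacna2d2 (0.55) and Cacng4 (0.34, not called at matched depth) were higher and Cacna1c (-1.16) lower. Of 11 GalNAc transferases Galnt11 (-0.37) was lower, and not at matched depth.

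Myb, a transcription factor of proliferating progenitors, was at 121 ± 20.5 CPM in Rem2/Galnt14 cells and 89.1 ± 16.8 in unmarked cells (SD, n = 8). It was higher in 8 of 8 libraries, by 0.40 (SE 0.06, edgeR adjusted p = 4.3e-05). Insig1 (0.34), Cyp51 (0.32) and Sqle (0.31), genes of cholesterol synthesis and its control, were each higher in 8 of 8 libraries and stayed called at matched depth. Tph1, the enzyme that starts serotonin synthesis, fell by 1.14 (SE 0.20; -1.07 and edgeR adjusted p = 0.13 at matched depth) and Plk2, a kinase of the stress response, by 1.47 (SE 0.24). Rbp4, a retinol carrier, was lower in 8 of 8 libraries, by 0.62 on the log2 scale. Against all other tumour cells both Rbp4 (0.32, edgeR adjusted p = 8.9e-04) and Tph1 (0.49, adjusted p = 0.014) were higher. Ptn, a heparin-binding growth factor, was at 285 ± 27.5 CPM against 334 ± 47.5 in unmarked cells. Myb (-0.02), Insig1 (0.08), Cyp51 (0.10), Sqle (0.12), Ptn (0.05) and Plk2 (-0.06) did not pass against all other tumour cells. These 8 genes were picked after their values were seen, from those with the smallest p.

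Among the lower genes named by the rule were 3 homeobox genes. En1, a homeobox factor of the midbrain and hindbrain, had 23.5 and 24 CPM in the brain, 2.96, 5.70 and 1.72 in the liver and 19.0, 3.42 and 1.00 under the skin. Unmarked cells had 111 and 92.6, then 10.9, 6.25 and 9.54, then 53.1, 8.24 and 10.7. En1 was lower in 8 of 8 libraries, by 1.85 on the log2 scale (SE 0.33, edgeR adjusted p = 0.0013), and by 1.58 at matched depth. Des, the muscle intermediate filament desmin, was lower by 1.41 (SE 0.28), Hoxd10 by 1.61, Hoxd9 by 1.57, Tm4sf1 by 1.54 and Nrxn3 by 1.45. Of 6 genes of the list that marks En1 cells, 4 were lower and 0 higher (median -1.49, against -0.02 over all genes tested). The same list had 0 of 6 genes called against all other tumour cells.

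Across all cells that passed the exclusion clauses these genes followed the number of UMIs of the pair. Stmn4 rose from 39.0 CPM in cells with 0 UMIs to 51.2, 63.0, 72.0 and 92.2 CPM in cells with 1, 2, 3 and at least 4. Sfrp5, a secreted Wnt antagonist and marker of the Sftpc cells, rose from 69.8 to 141 and Insm1 from 148 to 260. Des fell from 47.0 to 5.78 and Hoxd10 from 19.0 to 2.56. En1 fell from 40.8 CPM to 6.75 at 3 UMIs and stood at 12.1 at 4 or more, where the smallest library held 8 cells. Depth rose along the same steps, from a median of 6537 to 10582.5 UMIs per cell, and its part in the trend was not tested. The steps used the measure that chose the cells, and the values are a description.

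**Figure D4:**
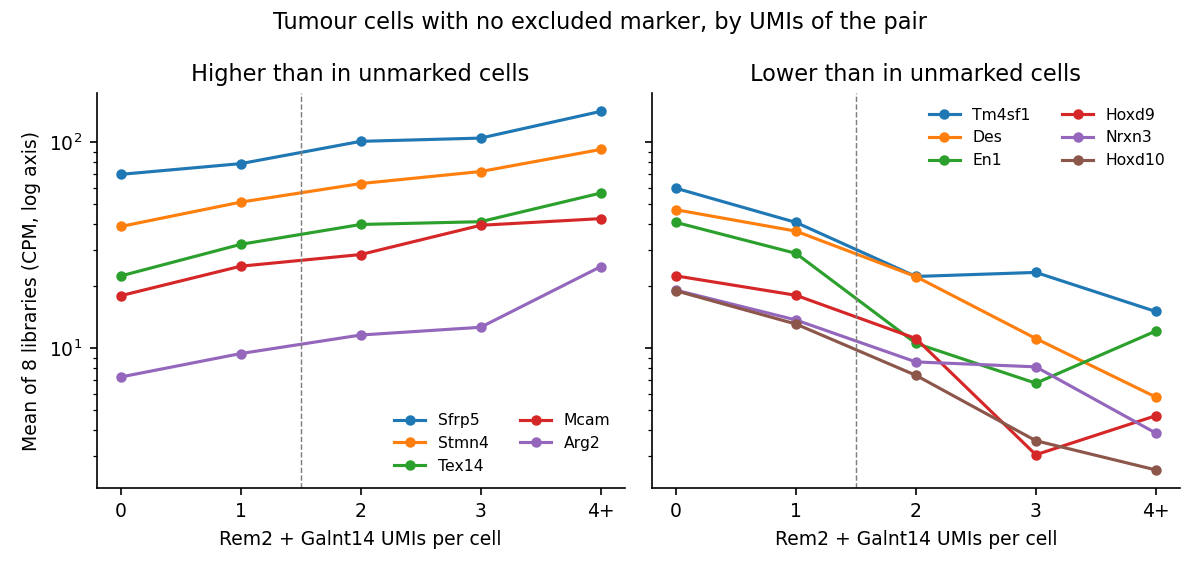
Mean CPM of 8 libraries (log axis) in tumour cells that passed the exclusion clauses, by the number of Rem2 and Galnt14 UMIs in the cell. Cells right of the dashed line are Rem2/Galnt14 cells. Genes higher than in unmarked cells (left) rise along the steps, as Stmn4 from 39.0 to 92.2, and lower genes (right) stand lower at 4 or more UMIs than at 0, as Des at 5.78 against 47.0, although En1 and Hoxd9 are lowest at 3.

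Compared with cells that held Sftpc, 1422 of 11728 genes (12.1%) passed. Stmn4 (0.27, edgeR adjusted p = 0.46) did not pass in that comparison, and Sfrp5 was lower (-0.71, adjusted p = 0.0049). Against cells with Htr3a, Isl1 and Igfbpl1 2314 genes (19.7%) passed, and 11 of 24 axon and cytoskeleton genes were lower and 1 higher. Against cells with Tfap2a 3235 genes (27.6%) passed, with 11 of 24 axon genes and 9 of 20 neuroendocrine granule genes higher. All 3 comparisons share the Rem2/Galnt14 libraries.

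The pair was also examined where the rule excludes it. Within cells that held Tfap2a, those with at least 2 UMIs of the pair differed from the rest in 840 of 9846 genes (8.53%). Stmn4 was higher by 1.30 on the log2 scale (SE 0.13, edgeR adjusted p = 6.4e-13) and Sfrp5 by 0.96 (SE 0.17), and Cacna1c (-0.53) and Nefl (-0.48) were lower. Of the 12 genes named as higher against all other tumour cells 3 were called in the same direction here, and of the 12 named as lower 8 were. None of these cells is among the 1563 Rem2/Galnt14 cells, although they come from the same libraries. Cells with Tfap2a were not screened for Sftpc. The part of Sftpc or of depth in these differences was not tested. This comparison and the one with Sftpc cells were added after values had been seen.

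Cell cycle was compared at equal depth. After thinning to 3000 UMIs, 34.3% ± 6.36 of Rem2/Galnt14 cells and 34.3% ± 2.34 of other tumour cells had at least 4 G2/M UMIs (SD, n = 8). The difference was 0.037 percentage points (exact sign-flip permutation p = 1, higher in 3 of 8 libraries). Without thinning the means were 52.3% and 50.7%. At least 4 UMIs of the S phase list were found in 75.0% ± 8.94 and 81.5% ± 6.07 (SD, n = 8). That share was lower in 8 of 8 libraries, by 6.54 points (exact sign-flip permutation p = 0.0078, the smallest 8 libraries allow). Against unmarked cells the S phase share differed by 2.05 points, higher in 5 of 8 libraries (exact permutation p = 0.30).

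Among Rem2/Galnt14 cells, the brain libraries stood apart from the other sites. The fit over 8 libraries called 570 of 9852 genes (5.79%) between brain and liver, 401 of them higher in the brain. Between brain and subcutaneous tumours 638 genes (6.48%) passed, 417 higher in the brain, and between liver and subcutaneous tumours 110 (1.12%), 21 higher in the liver. Libraries of the 2 sites did not overlap for 37.7%, 38.3% and 16.4% of genes in these comparisons. Among the other tumour cells 2937 (21.1%), 2004 (14.4%) and 421 (3.03%) of 13889 genes passed. Leaving out brain library 1 left 162 genes against liver and 176 against subcutaneous tumours, and leaving out brain library 2 left 245 and 252. Without subcutaneous library 1 the 3 counts were 844, 1229 and 354. With 1 brain library left, it is assumed to vary like the other sites. The brain held only 67 and 69 cells, so low genes rest on few UMIs.

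Macrophage transcripts led the genes that were higher in the brain. C1qa had 120 and 29.7 CPM in the brain and at most 0.654 CPM in any other library. C1qc had 70.4 and 28.3 CPM and was at 0 in all 3 liver libraries. C1qb, Trem2, Ly86, Psmb8 and the interferon-induced Ifit1 followed the same pattern. Of 9 macrophage and microglia genes tested 8 were higher in the brain against liver, and 6 of 10 interferon genes. The 11 macrophage genes summed to 516 and 179 CPM in the brain and 1.75 to 32.7 elsewhere. None of the 11 was at 0 in all libraries.

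In brain library 1, 51 of 67 Rem2/Galnt14 cells held a macrophage UMI, and 1 cell held 120 of the 330. In brain library 2, 16 of 69 cells did, and 1 cell held 108 of 127. In cells without any macrophage UMI, a setting added after the data were seen, 254 genes passed between brain and liver, 291 between brain and subcutaneous and 113 between liver and subcutaneous tumours.

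Other genes separated the sites too. Cd164l2 (-3.67) and Lama5 (-3.48), a laminin chain, were lower in the brain than in the liver. Fos was higher in the brain by 2.27 against liver (SE 0.27) and by 1.52 against subcutaneous tumours (SE 0.25). These genes were called in the same direction in the other tumour cells. Cd164l2 was at -2.87 there, Lama5 at -1.53 and Fos at 1.90 and 1.17. Ina did not pass in any of the 3 contrasts, with adjusted p of 0.60, 0.099 and 0.50 in edgeR.

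Subcutaneous Rem2/Galnt14 cells had the highest levels of low-oxygen genes. Egln3, an oxygen-sensing prolyl hydroxylase, had 12.5 and 8.48 CPM in the brain, 35.6, 30.2 and 36.7 in the liver and 95.4, 129 and 104 under the skin. No site overlapped another. It was lower by 3.33 in brain against subcutaneous tumours (SE 0.29, edgeR adjusted p = 4.0e-07) and by 1.63 in liver against subcutaneous tumours (SE 0.16, adjusted p = 2.9e-06). P4ha2, a collagen prolyl hydroxylase, had 0 and 4.24 CPM in the brain, 0.741, 1.14 and 2.29 in the liver and 39.9, 31.0 and 32.8 under the skin. Hk2, Vegfa and Slc2a1 were lower in the liver than under the skin by 3.05, 1.80 and 1.25.

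Of 18 hypoxia and glycolysis genes, 15 were lower in brain and 14 in liver against subcutaneous tumours, with medians of -1.69 and -1.52. The remaining tumour cells showed 17 and 13 of 19 lower, with medians of -1.55 and -1.33. Trib3 was lower by 2.48 in brain (SE 0.34) and by 1.58 in liver (SE 0.22) against subcutaneous tumours. Hspb1, a small heat shock protein, had 24.4, 11.4 and 47.0 CPM in the liver, 1.31, 1.95 and 2.25 under the skin and 1.56 and 0 in the brain. Tmprss4, a membrane protease, was also higher in the liver than under the skin, by 2.06 (SE 0.29), and Bex4 by 1.61. Selenbp1 and Bmp2, a bone morphogenetic protein, were lower in the liver by 2.63 and 2.81. The other tumour cells were called in the same direction for all of these genes. Liver against subcutaneous tumours was 3.10 for Hspb1 there, 2.40 for Tmprss4, 1.72 for Bex4, -2.59 for Selenbp1 and -2.32 for Bmp2. Trib3 was at -2.10 in brain and -1.60 in liver against subcutaneous tumours in those cells.

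**Figure D5:**
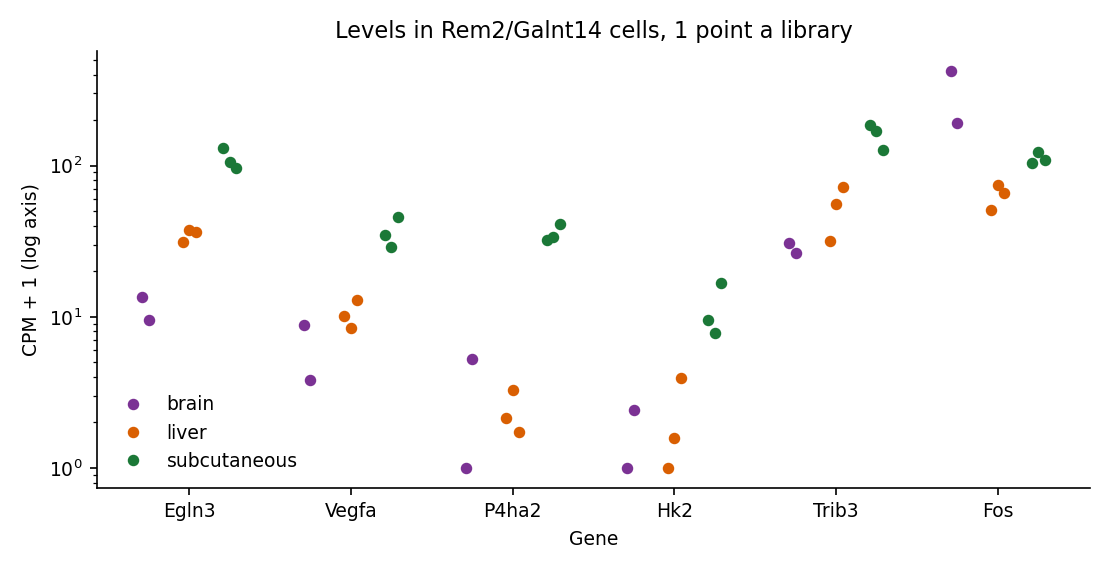
Levels of 6 genes in Rem2/Galnt14 cells (CPM + 1, log axis), 1 point per library, coloured by site. Egln3 lies between 8.48 and 12.5 CPM in the brain, 30.2 and 36.7 in the liver and 95.4 and 129 under the skin, and Fos is highest in both brain libraries.

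The test of whether their difference from the other tumour cells depended on the site called 20 of 11699 genes (0.171%), and 0 of the hypoxia genes. Cited4, a transcriptional co-activator, had 890 and 682 CPM in the Rem2/Galnt14 cells of the brain and 612 and 488 in the other tumour cells there. Elsewhere the cell groups were close, at 99.7 to 168 and 89.6 to 158 CPM. The difference on the log2 scale was 0.52 in the brain, -0.05 in the liver and 0.12 under the skin (edgeR adjusted p = 8.2e-05). Ifitm3, an interferon-induced membrane protein, was at -1.25, -0.18 and -0.09. Ctsb, a lysosomal protease that macrophages also express, was at 0.77, -0.07 and 0.04. Calca, the calcitonin gene, was at 0.15, 0.64 and -0.14. Against unmarked cells none of these 4 genes passed, with edgeR adjusted p of 0.25 to 0.99.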

How the data were processed

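The 8 deposited matrices hold raw UMI counts per gene and cell from Cell Ranger (format 3.0.0 per the file headers). The submitters' processing notes name STAR and mm10. Counts were used as deposited. The cells, their defining genes and the gene lists were chosen with earlier results of these data known.

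Counts were summed per library and class. Classes were cells with at least 3 UMIs of Htr3a, Isl1 and Igfbpl1, then of the rest those with Tfap2a, then those with Sftpc, then Rem2/Galnt14 cells and unmarked cells. edgeR 4.0.16 (R 4.3.3; TMM, default expression filter, robust quasi-likelihood) tested all genes except those of the rule, with Benjamini-Hochberg adjustment. The library was a block between classes, and site means were fitted within Rem2/Galnt14 cells. DESeq2 1.42.0 was an alternative. Named genes are the 12 a direction with the largest change among genes called, at least 10 CPM and of the same direction in 8 libraries, and for site contrasts 4 a direction without overlap. Against unmarked cells the rule was applied later, for 6 a direction. Further list genes, and 8 genes against unmarked cells, were chosen after their values were seen.

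Shares were compared by exact permutation over libraries. On simulated counts for members against others (11695 genes) the fit recovered 83% of genes changed 1.5-fold and 94% of those changed 2-fold. For brain against liver (9698 genes) it recovered 47% at 2-fold and 82% at 4-fold. False calls were 8 of 185 for members against others and 9 of 138 for brain against liver. Every simulated gene had the same spread, taken from the fit itself, so recovery on the real counts can be lower. No doublet caller was run. Leaving out the 5% of tumour cells with the most UMIs was an alternative. A few genes that the naming rule or the lists hold are not reported here.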

Additional observations from a re-analysis of the deposited data

Results flagged for a closer look

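In 4 genes the difference between Rem2/Galnt14 cells and other tumour cells depended on the site by the edgeR interaction test: Cited4 (adjusted p = 8.2e-05), Calca (8.8e-05), Ifitm3 (0.00042) and Ctsb (0.0077). These are the 4 with the smallest p among 20 called. Against unmarked cells none of the 4 passed, with adjusted p of 0.25 for Cited4, 0.99 for Calca, 0.43 for Ifitm3 and 0.75 for Ctsb.

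Outside the tumour cells, 17 cells that passed the filters on genes and mitochondrial UMIs, but held less than 0.2% of UMIs from eGFP and Mycl, had at least 2 UMIs of Rem2 and Galnt14. None of the macrophages did.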

How the results depend on the processing

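The count of genes called against other tumour cells moved from 1296 to 0 without a replicate block, 81 with the rule applied to thinned cells, 2407 at a threshold of 1 UMI of the pair, 662 at 3 UMIs, 345 in cells under 4 G2/M UMIs and 713 with DESeq2. It ran from 758 (without subcutaneous library 2) to 1464 with 1 library left out, and was 797 without subcutaneous library 3. With no filter on low counts 1583 genes passed, 357 higher and 1226 lower. Against unmarked cells 940 calls became 573 to 734 with 1 library left out and 277 at matched depth.

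For brain against liver, 570 calls became 913 with no filter on low counts, 2003 at 1 UMI, 34 at 3 UMIs and 254 without macrophage UMIs, and 162 to 844 with 1 library left out. For brain against subcutaneous tumours, 638 became 1039, 1849, 40 and 291, and 176 to 1229. For liver against subcutaneous tumours, 110 became 280, 235 and 52, and 59 to 354. With the replicate number of the labels as a block the 3 counts were 582, 586 and 191. In deviations from site means, same-numbered libraries correlated at -0.048 to 0.117 over genes and differently numbered ones at -0.119 to 0.133. With 2 or 3 libraries a site these deviations are tied to each other. The check therefore cannot settle whether the numbers pair the libraries.

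The interaction count of 20 became 292 against unmarked cells, where none of the 4 named genes passed, and 10 to 39 with 1 library left out. For the member share by site, the brain minus the other libraries was -2.611 points, and -3.289 without subcutaneous library 1 (range with 1 library left out -3.289 to -2.075). The cycling share of members minus others, 0.037 points, turned to -0.158 at 2 G2/M UMIs, -6.54 with the S phase list and -1.76 against unmarked cells, and ran from -0.9421 to 1.18 with 1 library left out.

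Log2 changes against all others reversed when the rule was applied to thinned cells for Mfap2 (-0.46), Trib3 (-0.0538), Ccdc30 (-0.63), Pif1 (-0.0808), Egr1 (-0.0595) and P4ha2 (-0.37). At 3 UMIs Mfap2 was at -0.17. At 1 UMI Cd74 was at 0.30 and Cacna1c at 0.0901. Against unmarked cells the values were Mfap2 -0.73, Trib3 -0.0549, Ccdc30 -0.49, Fos -0.0918, Ppp1r15a -0.0088, Gamt 0.0652, Car9 -0.80, P4ha2 -0.58, Egln3 -0.0635, Ddit3 -0.10 and Sesn2 -0.20. The causes were not tested. The brain comparisons rest on 67 and 69 cells.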
